A study of Homo sapiens and Homo sapiens
Mus musculus with 19 samples.

Results

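The clustered protocadherins were described here in SK-N-Be2c cells and in tumors grown from them, with and without editing of TWIST1. The members are all genes of the human count table whose symbols belong to the alpha, beta or gamma protocadherin families, 55 of 57820 genes. They comprise 16 alpha genes, 18 beta genes and 21 gamma genes, and all 55 lie on the plus strand of chromosome 5 (GRCh37), the alpha cluster at chr5:140165721-140391932, the beta cluster at chr5:140430959-140628933 and the gamma cluster at chr5:140710081-140892544. PCDHA14, PCDHB17 and PCDHB18 are pseudogenes.

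Clustered protocadherins are cadherin-like surface proteins of the nervous system that bind the same isoform on a neighboring cell. Each neuron uses a small set of them, which gives it a surface identity through which its own branches avoid each other. In the alpha and gamma clusters every member has its own first exon, which encodes the outer and membrane-spanning parts and has its own promoter, and this exon is spliced to constant exons that encode a common cytoplasmic end. The beta genes are single-exon genes. The C-type members at the end of the alpha and gamma clusters are, as background, expressed by most neurons rather than chosen at random, and CTCF, cohesin, DNA methylation and repressors such as SMCHD1 and TRIM28 act on the clusters.

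SK-N-Be2c is an established human neuroblastoma (NB) line with MYCN amplification. Total RNA depleted of ribosomal RNA had been sequenced from 3 Control and 3 sgTWIST1 cell samples, which the labels call clones (the Control genotype is labelled wild-type, the other TWIST1-KO), and from 4 Control and 4 sgTWIST1 ortho_1 tumors, taken from athymic Swiss nude mice after injection of these cells into the adrenal gland. TWIST1 had been edited with CRISPR/Cas9, and according to the methods the sgTWIST1 cells carry a single guide, so that an effect of the guide and of the loss of TWIST1 cannot be told apart. The human totals were 21695714 to 45789746 counts per cell sample and 21426528 to 49991029 per tumor. The labels do not tie a tumor to a clone.

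The reads of these genes are hard to place, and the following sequences show an exon that members share. The second exon is shared by 15 of the 16 alpha genes in the annotation (PCDHA14 lacks it) and by all 21 gamma genes. The bases of a read within this exon carry no information on the member it came from. The reads were longer than the exon, so a full read also covers bases of a neighboring exon, which can be the member's own. Both second exons are 59 bases long, coding, and given from GRCh37 on the plus strand, with no base marked in capitals.
alpha constant exon (chr5:140358534-140358592): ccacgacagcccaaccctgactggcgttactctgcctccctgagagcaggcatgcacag
gamma constant exon (chr5:140874374-140874432): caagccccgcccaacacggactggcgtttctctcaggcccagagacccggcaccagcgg

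In the median alpha gene 48.9% of the exon bases lay in an exon of another member, in the median gamma gene 43.8%, and in the beta genes none, although beta genes resemble each other in sequence. RSEM divides a read that fits several genes by estimated probability, which leaves values that are not whole numbers. Such values (further than 0.005 from a whole number) made up 81.6% of the alpha values, 84.5% of the beta values and 98.7% of the gamma values, against 32.5% in other genes with a mean of at least 10 counts. The levels of single members are therefore estimates, and reads of a neighbor may be included in each value below.

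The promoters of the family share a short element with the core CGCT, known as the conserved sequence element. Promoter sequences of 300 bases, from 250 bases before the start, were found for 46 members in RefSeq (GRCh38.p14). The windows printed here lie before the start, run 5′ to 3′ on the plus strand, have the core in capitals, and are placed at the GRCh37 position of an exact match. The first set shows alpha members, of which PCDHA1, PCDHAC1 and PCDHAC2 were called higher in sgTWIST1 samples in cells or in both comparisons. PCDHA2 and PCDHA11 were called in neither, although every sgTWIST1 cell sample exceeded every Control cell sample in both genes.
PCDHA1 (chr5:140165667-140165702): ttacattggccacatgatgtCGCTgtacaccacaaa
PCDHA2 (chr5:140174362-140174397): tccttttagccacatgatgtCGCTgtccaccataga
PCDHA11 (chr5:140248464-140248499): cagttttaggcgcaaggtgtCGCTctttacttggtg
PCDHAC1 (chr5:140305801-140305836): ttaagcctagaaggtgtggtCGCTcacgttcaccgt
PCDHAC2 (chr5:140346000-140346035): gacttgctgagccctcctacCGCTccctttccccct

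The second set shows beta members, of which PCDHB3 and PCDHB9 passed the test in neither comparison and the others passed it in both.
PCDHB3 (chr5:140479973-140480008): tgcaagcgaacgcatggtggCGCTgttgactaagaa
PCDHB9 (chr5:140566644-140566679): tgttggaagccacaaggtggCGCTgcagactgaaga
PCDHB10 (chr5:140571868-140571903): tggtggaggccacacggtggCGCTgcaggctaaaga
PCDHB13 (chr5:140593433-140593468): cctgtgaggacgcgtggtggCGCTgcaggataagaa
PCDHB15 (chr5:140624878-140624913): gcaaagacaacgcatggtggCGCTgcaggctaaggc

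The third set shows gamma members, of which PCDHGA1, PCDHGA2 and PCDHGA3 were higher in sgTWIST1 samples, and PCDHGB1 and PCDHGA4, their next neighbors, were not called.
PCDHGA1 (chr5:140709966-140710001): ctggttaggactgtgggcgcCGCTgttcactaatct
PCDHGA2 (chr5:140718266-140718301): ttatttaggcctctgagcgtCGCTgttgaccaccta
PCDHGA3 (chr5:140723330-140723365): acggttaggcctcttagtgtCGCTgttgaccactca
PCDHGB1 (chr5:140729588-140729623): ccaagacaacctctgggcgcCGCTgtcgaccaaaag
PCDHGA4 (chr5:140734523-140734558): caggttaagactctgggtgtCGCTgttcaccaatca

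The core CGCT stood on the coding strand between 100 and 30 bases before the start in 42 of the 46 member promoters, 91.3%, against 20.8% of all 35116 RefSeq promoters. The window was set after these sequences had been seen. Longer strings that contain the core differed by cluster. Each string is given with the cluster whose promoters were found to hold it, so its share there is a description and no test. ATGTCGCT, searched on both strands, was held by 9 of 13 alpha promoters and 0.234% of all promoters, GGCGCTGC by 11 of 14 beta promoters and 4.38% of all, and GCCGCTGT by 10 of 19 gamma promoters and 1.63% of all. The core was present in 14 of 15 promoters of members called higher in sgTWIST1 cells or tumors and in 28 of 31 promoters of the other members. The general E-box letters CANNTG, the class of sequence that TWIST1 binds, were held by 27 of 46 member promoters, 58.7%, against 68.7% of all promoters, and CATCTG by 7 of 46, against 14.7% of all. A match of letters is a description and not a bound site.

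TWIST1 was examined first as the edited gene. Its level in CPM (counts relative to the TMM-scaled library total) was 55.2, 59.0 and 47.9 in the Control cells and 31.3, 28.4 and 18.6 in the sgTWIST1 cells. In the tumors it was 66.9, 61.4, 69.6 and 71.3 for Control and 37.8, 28.6, 14.5 and 30.3 for sgTWIST1. The groups did not overlap, and log2(FC), given throughout as Control relative to sgTWIST1, was 1.06 (SE 0.20, adjusted p = 0.00525) in cells and 1.28 (SE 0.25, adjusted p = 0.00615) in tumors by edgeR's quasi-likelihood test. TWIST1 RNA was thus still counted in every sgTWIST1 sample. The paper reports that wild-type TWIST1 protein was fully lost in the sgTWIST1 cells, which RNA counts do not measure.

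Levels of different members are compared per length, as RPKM from the exon lengths of the annotation. PCDHGC3, a C-type gamma gene, had the highest mean over the 14 samples with 11.5 RPKM, followed by the C-type alpha gene PCDHAC2 with 10.4 RPKM. The 4 highest beta genes were PCDHB8 with 8.89 RPKM, PCDHB16 with 8.38, the pseudogene PCDHB18 with 7.2 and PCDHB15 with 5.97. The other leading gamma genes were PCDHGB1 with 6.07 RPKM, PCDHGA4 with 4.26 and PCDHGB2 with 3.28, and the other leading alpha genes were PCDHAC1 with 3.42 RPKM, PCDHA11 with 3.01 and PCDHA1 with 2.12. The order is that of means over groups that differ, and neighbors such as PCDHGC3 and PCDHAC2 changed places between groups: PCDHAC2 stood at 7.29 RPKM in Control cells and 24.2 in sgTWIST1 cells, PCDHGC3 at 14.9 and 9.02. PCDHB1 was lowest with 0.0315 RPKM and was not tested, since its mean count was below 10. The other 54 members were tested.

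Summed over its members, the beta cluster was higher in sgTWIST1 samples in cells and in tumors, the alpha cluster in cells, and the gamma cluster in neither. The beta total was 94.6, 116 and 95.1 CPM in Control cells and 293, 271 and 262 CPM in sgTWIST1 cells, a ratio of means of 2.70. In tumors the beta total was 152, 135, 174 and 146 CPM for Control and 329, 339, 314 and 337 CPM for sgTWIST1, a ratio of 2.17. No Control value reached the lowest sgTWIST1 value.

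The alpha total was 120, 150 and 133 CPM in Control cells against 321, 333 and 274 CPM in sgTWIST1 cells, with no overlap and a ratio of 2.30. In tumors it was 148, 121, 185 and 130 CPM against 236, 216, 173 and 219 CPM, a ratio of 1.45, and the groups overlapped because sgTWIST1 tumor 3 lay below Control tumor 3. The gamma totals overlapped in both comparisons, with ranges of 187 to 211 and 174 to 199 CPM in cells and of 229 to 347 and 315 to 330 CPM in tumors. Totals are given without a test. Without the C-type members the ratios moved: on the log2 scale of sgTWIST1 over Control the gamma cluster turned from -0.10 to 0.27 in cells and went from 0.11 to 0.51 in tumors, and the alpha cluster went from 1.20 to 0.74 in cells and from 0.53 to 0.26 in tumors.

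**Figure D1:**
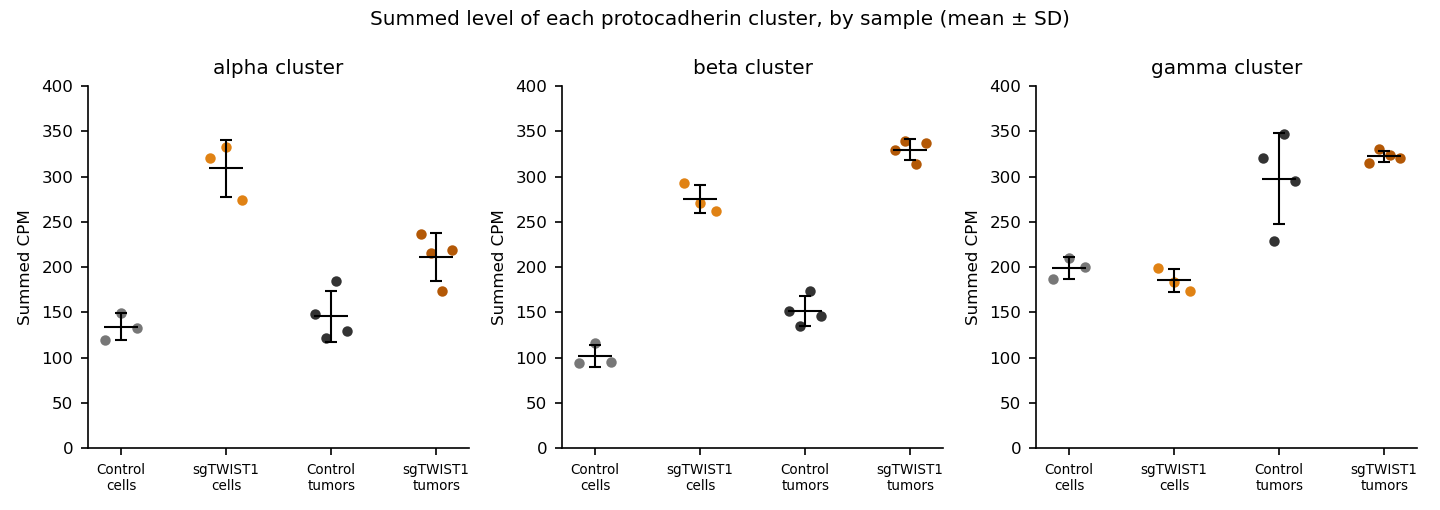
Summed CPM of the alpha, beta and gamma clusters (y axis) in each sample of the 4 groups (x axis), with points for samples and bars for mean ± SD. The beta totals of the sgTWIST1 groups, 262 to 293 CPM in cells and 314 to 339 CPM in tumors, lie above all Control values, and the gamma totals overlap.

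In cells, 17 of the 54 members tested were called (at an adjusted p under 0.05 with a log2(FC) of 1 or more in size), and all 17 were higher in sgTWIST1 cells. Over all 20658 genes tested, 15.0% were called, 6.77% higher in sgTWIST1 and 8.28% higher in Control. By cluster the calls were 4 of 16 alpha genes, 10 of 17 beta genes and 3 of 21 gamma genes. The median log2(FC) was -0.65 in the alpha, -1.05 in the beta and -0.07 in the gamma cluster, against 0.04 over all genes tested. The 2 groups of cells did not overlap in 32 of all 55 members, PCDHB1, which was not tested, among them, against 44.1% of all genes tested. Without overlap and higher in sgTWIST1 were 26 members, against 22.7% of all genes tested.

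In tumors, 14 of 54 members were called, of which 12 were higher in sgTWIST1 tumors and 2 were higher in Control tumors. The share over all 23737 genes tested was 10.2%, with 4.79% higher in sgTWIST1 and 5.41% higher in Control. The calls were 2 of 16 alpha genes, 7 of 17 beta genes and 5 of 21 gamma genes, and the cluster medians of log2(FC) were -0.23, -0.59 and -0.37 against 0.04 over all genes. The groups did not overlap in 26 members, against 21.4% of all genes tested. Without overlap and higher in sgTWIST1 were 24 members, against 9.68% of all genes tested. Across both comparisons 11 members were called higher in sgTWIST1 samples each time, while 2.89% of the 20286 genes tested in both were. These 11 were PCDHA1, PCDHAC2, PCDHB8, PCDHB10, PCDHB11, PCDHB12, PCDHB13, PCDHB15, PCDHGA1, PCDHGA2 and PCDHGA3. Cells alone gave PCDHA5, PCDHAC1, PCDHB2, PCDHB6, PCDHB7 and PCDHB18, and tumors alone gave PCDHB14, PCDHGC3 and PCDHGC4. A call in 1 setting alone does not show that the settings differ, and that test follows further on.

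**Figure D2:**
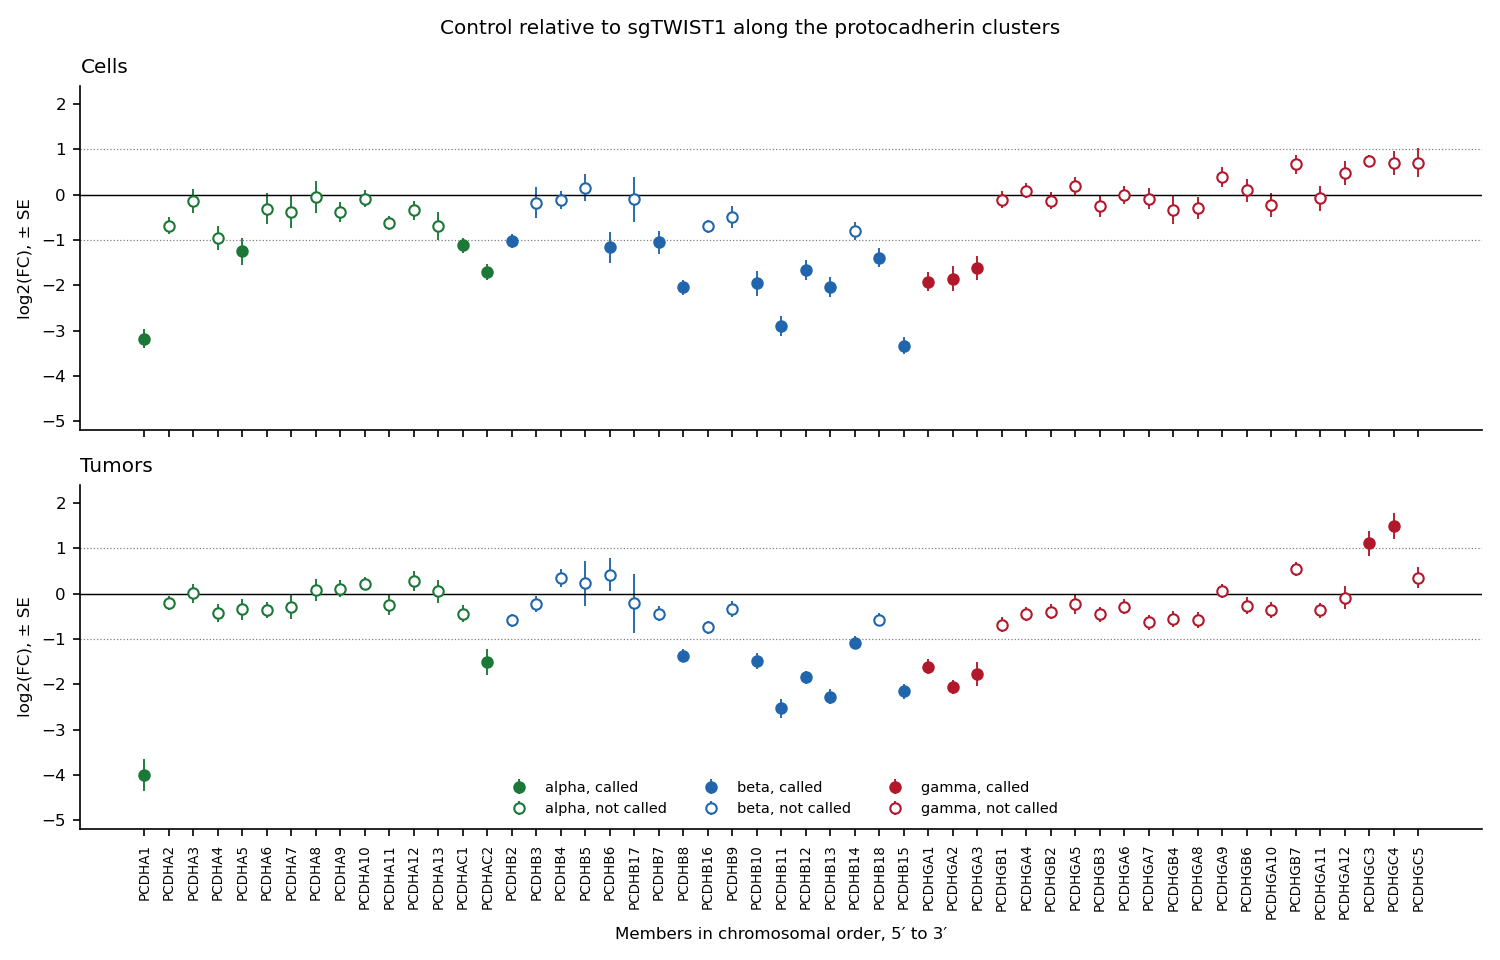
log2(FC) of Control relative to sgTWIST1 with its SE (y axis) for 53 members in chromosomal order (x axis), in cells above and in tumors below. Filled points passed the test, and the stretch from PCDHB8 to PCDHGA3 holds 10 filled points in each panel, all below 0. PCDHB1, which was not tested, and PCDHA14 are left out.

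Along the chromosome the called members were not spread evenly over the clusters. From PCDHB8 to PCDHGA3, across the boundary between the beta and the gamma cluster, lie 13 members, of which 10 were called higher in sgTWIST1 cells and 10 in sgTWIST1 tumors. In cells the exceptions were PCDHB16, PCDHB9 and PCDHB14, and in tumors PCDHB16, PCDHB9 and PCDHB18, with log2(FC) between -0.81 and -0.35. The 15 gamma genes that follow, from PCDHGB1 to PCDHGA12, held no call in either comparison. In the alpha cluster the calls lay at both ends, PCDHA1 at the start and the C-type genes at the end, with PCDHA5 between them in cells. The stretch was delimited after the values had been seen, and no test was made of it.

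PCDHA1, the first gene of the alpha cluster, had the lowest log2(FC) of the family in tumors. Its level was 2.15, 2.82 and 2.92 CPM in Control cells and 24.4, 26.7 and 20.9 CPM in sgTWIST1 cells (78 to 99 against 473 to 1081 counts). In tumors it was 1.25, 2.03, 1.02 and 0.726 CPM for Control and 23.3, 17.5, 14.6 and 25.4 CPM for sgTWIST1. Every sgTWIST1 value exceeded every Control value, and log2(FC) was -3.18 (SE 0.21, adjusted p = 1.93e-05) in cells and -4.00 (SE 0.35, adjusted p = 6.22e-05) in tumors. PCDHA1 made up 1.96% of the alpha total in Control cells and 7.76% in sgTWIST1 cells. Of the 13 other alternative alpha genes (PCDHA2 to PCDHA14), only PCDHA5 was called, in cells, and PCDHA11, the highest of them by mean RPKM, had 14.4 ± 1.7 CPM in Control cells and 22.4 ± 1.3 CPM in sgTWIST1 cells (SD, n = 3), with log2(FC) -0.62 and adjusted p = 0.0219, under the fold threshold.

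PCDHAC2 had the largest mean share of the alpha total in 3 of the 4 groups, and in Control tumors PCDHA10 had a larger one (15.1%). It had 36.7, 47.7 and 50.3 CPM in Control cells and 159, 162 and 125 CPM in sgTWIST1 cells. In tumors it had 18.0, 14.5, 25.8 and 24.1 CPM for Control and 73.1, 63.3, 29.6 and 67.5 CPM for sgTWIST1. The groups did not overlap, although sgTWIST1 tumor 3 lay close to the highest Control tumor, and log2(FC) was -1.71 (SE 0.18, adjusted p = 0.000216) in cells and -1.51 (SE 0.28, adjusted p = 0.00524) in tumors. Its share of the alpha total was 33.4% in Control and 48.1% in sgTWIST1 cells, and 14.2% and 27.0% in the respective tumors. The neighboring C-type gene PCDHAC1 was called in cells, at 21.1 ± 2.2 against 46.3 ± 8.0 CPM (SD, n = 3), with log2(FC) -1.12 and adjusted p = 0.00188. In tumors PCDHAC1 stood at 14.2 ± 4.0 against 19.3 ± 1.9 CPM (SD, n = 4), with overlapping groups and adjusted p = 0.166.

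PCDHA14, the alpha pseudogene, was at 0 in 1 of the 3 Control cell samples, in 3 Control tumors and in all 4 sgTWIST1 tumors, and had 89 counts in Control tumor 3. Its fitted fold in tumors depends on that library and is not given. All of the exon bases of PCDHA14 (100.0%) lie in an exon of another alpha member, so its reads cannot be told apart from those of that member. PCDHA14 also overlaps a gene of the opposite strand, AC005609.1. Whether the counting used strand is not given in the sources used here, so it is not known whether the reads of these 2 genes were kept apart.

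PCDHB15, the last gene of the beta cluster, had the lowest log2(FC) of the family in cells. It had 3.78, 3.74 and 3.83 CPM in Control cells and 46.9, 32.7 and 35.6 CPM in sgTWIST1 cells. In tumors it had 9.63, 7.74, 10.7 and 9.51 CPM for Control and 37.3, 46.3, 35.8 and 48.1 CPM for sgTWIST1. The sgTWIST1 levels of cells and tumors overlapped, while all Control tumors lay above all Control cells. log2(FC) was -3.33 (SE 0.19, adjusted p = 8.87e-06) in cells and -2.16 (SE 0.16, adjusted p = 2.85e-05) in tumors.

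PCDHB11 had 1.99, 2.57 and 2.27 CPM in Control cells against 13.98, 18.4 and 18.98 CPM in sgTWIST1 cells. In tumors PCDHB11 had 4.76, 4.51, 4.42 and 2.80 CPM against 24.6, 22.8, 21.0 and 27.3 CPM. The groups were separate in both settings, with log2(FC) -2.89 (SE 0.23, adjusted p = 4.6e-05) in cells and -2.53 (SE 0.21, adjusted p = 4.1e-05) in tumors. For PCDHB13 the values were 4.14, 4.76 and 3.46 CPM in Control cells and 21.0, 16.1 and 14.5 CPM in sgTWIST1 cells. In tumors PCDHB13 had 7.34, 5.01, 6.24 and 5.06 CPM for Control and 31.1, 28.4, 28.6 and 26.6 CPM for sgTWIST1, again without overlap, and log2(FC) was -2.04 (adjusted p = 0.0003) in cells and -2.28 (adjusted p = 2.03e-05) in tumors.

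PCDHB8, the beta gene of highest mean level, stood at 10.4 ± 1.6 CPM in Control cells and 43.0 ± 3.7 CPM in sgTWIST1 cells (SD, n = 3), with log2(FC) -2.04 and adjusted p = 5.56e-05. In tumors it stood at 12.7 ± 1.6 and 32.8 ± 3.6 CPM (SD, n = 4), with log2(FC) -1.37 and adjusted p = 0.000221. Its neighbor PCDHB16 differed less, with log2(FC) -0.70 (adjusted p = 0.00789) in cells and -0.74 (adjusted p = 0.00644) in tumors, both under the fold threshold, so that the share of PCDHB16 in the beta total was 21.7% in Control and 13.1% in sgTWIST1 cells. The pseudogene PCDHB18 was called in cells, at 6.31 ± 0.54 against 16.8 ± 3.5 CPM (SD, n = 3), and in tumors its log2(FC) was -0.58 with adjusted p = 0.0165. The calls of PCDHB2, PCDHB6 and PCDHB7 in cells, with log2(FC) from -1.16 to -1.02, lay near the fold threshold.

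The first genes of the gamma cluster, PCDHGA1, PCDHGA2 and PCDHGA3, were called in both comparisons, and the next, PCDHGB1, in neither. PCDHGA1 had 6.48, 4.54 and 5.22 CPM in Control cells and 23.5, 20.5 and 18.1 CPM in sgTWIST1 cells, with log2(FC) -1.92 (SE 0.21, adjusted p = 0.000281). In tumors PCDHGA1 had 5.92, 7.27, 6.82 and 6.61 CPM for Control and 20.9, 20.2, 17.0 and 23.9 CPM for sgTWIST1, with log2(FC) -1.62 (SE 0.16, adjusted p = 0.00014). The sgTWIST1 samples of both settings thus shared 1 range and stood above all Control samples.

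PCDHGA2 was lower in level, at 1.39 ± 0.28 against 5.04 ± 0.40 CPM in cells (SD, n = 3) and 2.66 ± 0.15 against 11.2 ± 0.87 CPM in tumors (SD, n = 4), with log2(FC) -1.85 (adjusted p = 0.00153) and -2.06 (adjusted p = 3.15e-05). PCDHGA3 stood at 1.14 ± 0.09 against 3.55 ± 0.31 CPM in cells (SD, n = 3) and 2.24 ± 0.66 against 7.72 ± 0.94 CPM in tumors (SD, n = 4), with log2(FC) -1.62 (adjusted p = 0.00247) and -1.77 (adjusted p = 0.00131). PCDHGA3 rested on 33 to 45 counts per Control cell sample. The higher PCDHGB1 stood at 21.6 ± 4.4 CPM in Control cells and 23.5 ± 3.95 CPM in sgTWIST1 cells (SD, n = 3), which overlapped (log2(FC) -0.11, adjusted p = 0.719), and in tumors its log2(FC) was -0.69 (adjusted p = 0.0182). PCDHGA4 and PCDHGB2 had log2(FC) of 0.09 and -0.13 in cells and of -0.45 and -0.40 in tumors, and none of these passed the test.

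The C-type gamma genes were the only members called higher in Control samples. PCDHGC3 had 71.4, 84.3 and 87.4 CPM in Control cells and 52.9, 48.4 and 45.7 CPM in sgTWIST1 cells, which did not overlap. Its log2(FC) in cells, 0.74 (SE 0.14, adjusted p = 0.00535), was under the fold threshold. In tumors PCDHGC3 had 75.6, 43.0, 112 and 102.5 CPM for Control and 35.3, 43.4, 29.2 and 45.2 CPM for sgTWIST1, with log2(FC) 1.11 (SE 0.27, adjusted p = 0.0194). Control tumor 2 fell within the sgTWIST1 range, and the call was lost without Control tumor 3, Control tumor 4, sgTWIST1 tumor 1 or sgTWIST1 tumor 3 (log2(FC) 0.93 to 1.06). PCDHGC3 made up 40.6% of the gamma total in Control cells and 26.4% in sgTWIST1 cells, and 27.4% and 11.9% in the tumors.

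PCDHGC4, the C-type gene that follows, had 14.3, 8.79, 23.8 and 22.7 CPM in Control tumors and 6.14, 4.99, 6.77 and 6.65 CPM in sgTWIST1 tumors, with log2(FC) 1.49 (SE 0.28, adjusted p = 0.00503). In cells PCDHGC4 had 8.71, 5.76 and 8.48 CPM against 3.88, 6.10 and 4.29 CPM, which overlapped (adjusted p = 0.0922). The third, PCDHGC5, stood at 2.18 ± 0.58 against 1.35 ± 0.27 CPM in cells (SD, n = 3) and 3.69 ± 0.33 against 2.90 ± 0.49 CPM in tumors (SD, n = 4), and was called in neither.

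Murine reads bear on the tumor values, since reads that matched both genomes had been kept in the human counts. The mouse gene Pcdhgc3 had 707.7, 41.9, 1694.5 and 1209.5 counts in the 4 Control tumors, the same order of samples as human PCDHGC3 and PCDHGC4, and 705, 421, 659 and 600 counts in the sgTWIST1 tumors, where the order differed from that of both human genes. The mouse gamma genes summed to 1.69% to 21.9% of the human gamma counts of a tumor, the mouse beta genes to 0.986% to 12.8%, and the mouse alpha genes to 0.0573% to 1.21%. Their part in the tumor values was not tested.

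The effect of the knockout was compared between tumors and cells as an interaction, the log2(FC) in tumors minus that in cells. PCDHB15 was the 1 member called of 54, with a difference of 1.19 (SE 0.25, adjusted p = 0.0126), against 3.38% of the 22583 genes tested. Its ratio of means, sgTWIST1 over Control, was 10.2 in cells and 4.46 in tumors. The call was lost when no filter on low counts was applied (difference 1.24, adjusted p = 0.169). The interaction median was 0.44 in the alpha, 0.37 in the beta and -0.27 in the gamma cluster, against -0.001 over all genes tested. For PCDHA1 the difference was -0.83 (SE 0.40, adjusted p = 0.376), and for PCDHGC4 it was 0.82 (SE 0.43, adjusted p = 0.414), so that no difference between the settings was shown for either.

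Tumors were then compared with cells of the same genotype. Per the labels, the RNA of cells had been extracted with the RNeasy kit and that of tumors with the miRNeasy kit, while the methods name the RNeasy kit for both, and the amount of input RNA differed. Such factors and the growth in the animal cannot be told apart, and neither, in bulk samples, can fewer cells of a type and less RNA per cell. In Control samples 19 of 54 members were called, 17 higher and 2 lower in tumors, against 11.1% of all 22583 genes (6.44% higher and 4.70% lower). In sgTWIST1 samples 22 of 54 were called, 19 higher and 3 lower, against 12.7% of all genes (7.61% higher and 5.10% lower). Most of the higher members were gamma genes, 9 of 21 in Control and 17 of 21 in sgTWIST1, and the gamma medians were 0.98 and 1.26 against 0.09 and 0.11 over all genes. Of the 16 alpha genes, 6 were called higher and 2 lower in tumors in Control, and 2 higher and 2 lower in sgTWIST1. The alpha medians were 0.79 and 0.29.

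PCDHGB2 had 8.44, 8.41 and 8.85 CPM in Control cells and 23.6, 14.7, 17.6 and 16.02 CPM in Control tumors, with a log2 difference of 1.07 (SE 0.18, adjusted p = 0.000875), a call lost without Control tumor 1. In sgTWIST1 samples PCDHGB2 went from 9.48 ± 1.06 (SD, n = 3) to 23.7 ± 2.3 CPM (SD, n = 4), with a log2 difference of 1.32 (adjusted p = 0.000153). PCDHGC3 was called in neither genotype, with log2 differences of 0.04 (adjusted p = 0.943) in Control and -0.35 (adjusted p = 0.347) in sgTWIST1 by edgeR's quasi-likelihood test. Nor was PCDHGA1, with 0.30 (adjusted p = 0.292) and -0.01 (adjusted p = 0.966) by the same test. The gamma total of Control tumor 2, the tumor with the fewest mouse counts, was 229 CPM, below the other Control tumors (295 to 347) and above the Control cells (187 to 211). Its alpha and beta totals, 121 and 135 CPM, were also the lowest of the Control tumors. Among the sgTWIST1 tumors, tumor 2 had the fewest mouse counts and the highest gamma total (330 CPM). The part of mouse reads in these totals was not tested.

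PCDHAC2 ran the other way. Its log2 difference of tumors over cells was -1.12 (SE 0.27, adjusted p = 0.0106) in Control and -1.35 (SE 0.27, adjusted p = 0.00305) in sgTWIST1, and the call in Control was lost without Control tumor 2. PCDHAC1 fell in sgTWIST1 tumors, by 1.26 on the log2 scale (adjusted p = 0.000665), and had a difference of -0.57 (adjusted p = 0.075) in Control. PCDHA1 was lower in Control tumors than in Control cells (-1.07, SE 0.30, adjusted p = 0.0215), a call lost without Control cells 2 or 3 or without Control tumor 1, 3 or 4, and had a difference of -0.25 (adjusted p = 0.532) in sgTWIST1. The beta cluster held 2 calls in Control, PCDHB18 and PCDHB15, both higher in tumors, and 1 in sgTWIST1, PCDHB6, lower in tumors, which was lost without sgTWIST1 cells 2 or 3 or without sgTWIST1 tumor 1 or 2.

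**Figure D3:**
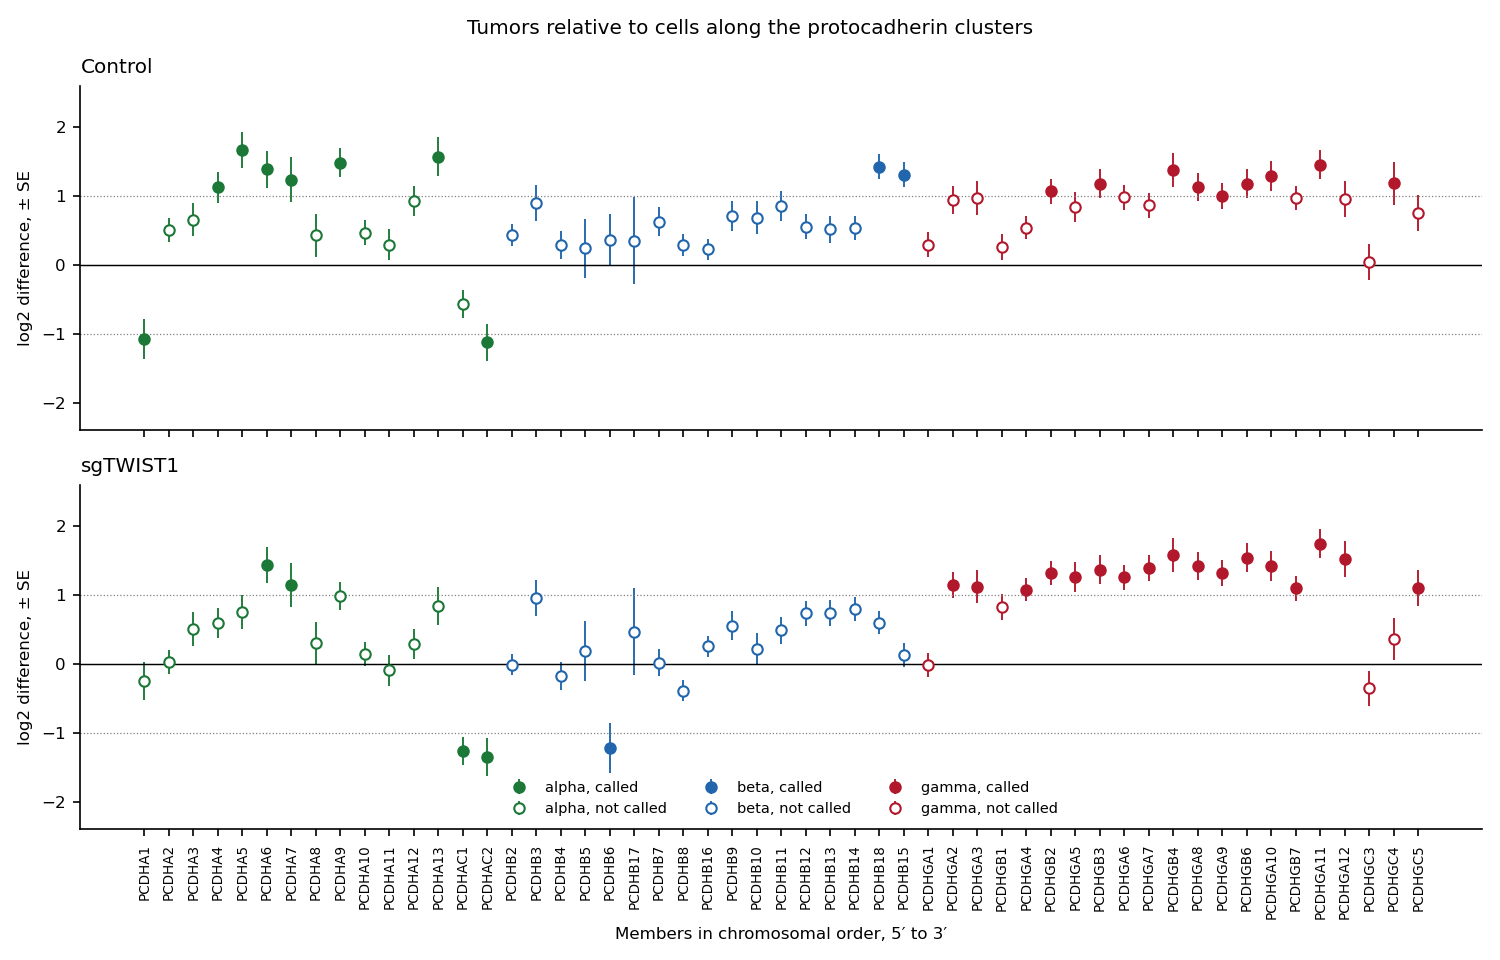
log2 difference of tumors relative to cells with its SE (y axis) for 53 members in chromosomal order (x axis), in Control above and in sgTWIST1 below. Filled points passed the test, 9 gamma genes in Control and 17 in sgTWIST1 among them, all above 0, while PCDHAC2 lies below 0 in both.

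The protocadherins outside the clusters, single genes on other chromosomes or elsewhere on chromosome 5, went in both directions. Of 12 tested, 3 were called higher in Control cells (PCDH10, log2(FC) 6.10; PCDH19, 3.52; PCDH18, 1.59) and 2 higher in sgTWIST1 cells, among them PCDH9 (-2.55). In tumors 2 were called higher in Control, PCDH18 (4.33) and PCDH10 (3.47), and 3 higher in sgTWIST1, among them PCDH9 (-3.84). The median log2(FC) of these genes was 0.49 in cells and 0.02 in tumors. The shares called over all genes tested were 15.0% in cells and 10.2% in tumors. Of 31 genes that flank the clusters on 5q31, 29 were tested in cells and 30 in tumors. They gave 1 call in each direction in cells, FCHSD1 (1.07) and HBEGF (-1.04), and in tumors 1 higher in Control, CXXC5 (1.89), and 2 higher in sgTWIST1, CD14 (-1.78) and EIF4EBP3 (-1.49). TAF7, which lies between the beta and gamma clusters, had log2(FC) -0.35 (adjusted p = 0.145) in cells and -0.37 (adjusted p = 0.193) in tumors.

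Of 26 regulators of chromatin at the clusters, among them CTCF, cohesin subunits, SMCHD1, SETDB1 and the DNA methyltransferases, 1 was called in each comparison, TRIM28, a corepressor that recruits SETDB1 to zinc finger proteins. TRIM28 had 206, 165 and 151 CPM in Control cells and 0.368, 0.371 and 0.575 CPM in sgTWIST1 cells. In tumors it had 145, 90.6, 237 and 159.5 CPM for Control and 0.356, 0.754, 1.23 and 0.499 CPM for sgTWIST1. It was near 0 in every sgTWIST1 sample, with log2(FC) 8.70 (adjusted p = 9.78e-07) in cells and 7.83 (adjusted p = 8.66e-06) in tumors. The part of TRIM28 in the protocadherin levels was not tested, and in this design it cannot be told apart from that of TWIST1. The median log2(FC) of the 26 regulators was -0.18 in cells and 0.24 in tumors, and 15.0% and 10.2% of all genes tested were called. Under the fold threshold, other regulators reached an adjusted p under 0.05 by edgeR's quasi-likelihood test. EHMT1 and ATF7IP did so in both comparisons, higher in Control. CTCF was among those higher in Control tumors (0.81, adjusted p = 0.00938), and WIZ among those higher in sgTWIST1 cells (-0.74, adjusted p = 0.00872).

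Of 20 intracellular partners of the protocadherins, 3 were called in each comparison, the same genes, against 15.0% of all genes tested in cells and 10.2% in tumors. The count in cells is thus no larger than the share over all genes. PTK2, the focal adhesion kinase that the cytoplasmic end of alpha and gamma protocadherins binds and inhibits, was higher in Control, with log2(FC) 1.63 (adjusted p = 7.18e-05) in cells and 1.47 (adjusted p = 0.000191) in tumors. CYFIP2, a subunit of the WAVE complex that drives actin branching, was also higher in Control (1.74 and 1.01). PRKCA, a protein kinase C, was higher in sgTWIST1 (-1.01 and -1.90).

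Markers of neuroblasts were high in all groups, with summed levels of 5281 to 9635 CPM in Control cells, 5306 to 5851 in sgTWIST1 cells, 4081 to 5547 in Control tumors and 2972 to 4807 in sgTWIST1 tumors. Of the 12, 5 were called higher in Control cells, and 4 higher and 1 lower in Control tumors. Over all genes tested, 8.28% were called higher in Control and 6.77% higher in sgTWIST1 cells, and 5.41% and 4.79% in the respective tumors. The 7 fibroblast and mesenchymal markers summed to 43.3 to 96.9 CPM in Control and 289 to 411 CPM in sgTWIST1 cells, and to 30.5 to 43.6 and 67.7 to 144 CPM in the tumors. Most of the sum in sgTWIST1 cells came from DCN and LUM, with means of 172.5 and 181.8 CPM. Of these 7 markers, DCN and LUM were called higher in sgTWIST1 in both comparisons, and COL1A1, FN1 and COL3A1 higher in Control cells. The 7 Schwann and glial markers summed to at most 28.9 CPM and the 6 endothelial and blood markers with a row to at most 27.1 CPM in any sample. No marker of these lists was at or under 3 counts in all samples of a group. Their part in the protocadherin differences was not tested.

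The labels list batches of the same clone without saying what a batch is, and the difference between batches describes the spread within a clone. Over 51 members with a mean of at least 50 counts and 5 clones with 2 batches, the median absolute difference between the batches of a clone was 0.18 on the log2 scale. The median SD between samples was 0.19 in Control and 0.18 in sgTWIST1 cells, and 0.34 and 0.45 in the respective tumors. Both measures use library totals without TMM scaling, unlike the CPM values above, so they do not give the spread of those values. In sgTWIST1 tumors PCDHGA4 had an SD of 0.36 on this log2 scale, but stood at 29.6 ± 0.95 CPM (SD, n = 4) with TMM. Nothing in the sources used here says that clones or tumors came from separate editing events, so p-values measure the spread between these samples.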

How the data were processed

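The authors aligned single-end reads to hg19 and mm10 at the same time with STAR 2.5.2b, and separated them by organism. Expected counts per gene had been estimated by the authors with RSEM 1.3.0 and were deposited without normalization. The GENCODE version and the strand setting are not given in the sources used here. Reads that matched both organisms had been removed from the mouse counts only.

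For each clone, the expected counts of its batches were added up and rounded. Genes with a mean of at least 10 counts in the fit were tested in edgeR 4.0.16 (R 4.3.3) with TMM normalization, the quasi-likelihood test and Benjamini-Hochberg adjustment over all genes tested, the 2 groups of cells and of tumors separately, and all 4 groups for the interaction and for tumors against cells. A gene was called at an adjusted p under 0.05 and an absolute log2 difference of at least 1. SE values derive from the F statistic. CPM values use TMM-scaled totals, and the spread between batches and between samples uses totals without TMM. Cluster totals have no test. Positions and lengths are from GENCODE v44 lifted to GRCh37, in which 54 members were found by identifier and PCDHB16 by symbol. Promoters are from RefSeq (GRCh38.p14), with 44 of 46 found exactly on chromosome 5 of GRCh37. Figures used matplotlib 3.10.9. The fits were tested on simulated data.

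The members, lists and named genes were chosen with earlier results of these data known. Named are TWIST1, PCDHA1, the C-type members, the 4 highest members of each cluster by RPKM, the 2 called members of largest change per cluster, direction and knockout comparison, members called in the interaction, and up to 3 called genes per list. Other members are named where a count is accounted for.

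Alternatives were the Wald test of DESeq2 1.42.0, its size factors, other filters on low values, all groups in 1 fit, single batches, a replicate block and the omission of each sample in turn.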

Additional observations from a re-analysis of the deposited data

Results flagged for a closer look

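PCDHB15 was flagged because the effect of the knockout differed between tumors and cells. The log2(FC) in tumors minus that in cells was 1.19 (SE 0.25, adjusted p = 0.0126 by edgeR's quasi-likelihood test of the interaction). Over the alternatives the difference ranged from 1.02 (without sgTWIST1 cells 1) to 1.3 (without sgTWIST1 cells 2), and the adjusted p from 0.000179 with DESeq2 to 0.169 without a filter on low counts. All 4 Control tumors lay above all 3 Control cell samples, and the sgTWIST1 samples of cells and tumors overlapped. In 46 groups of 4 tumors examined for a single distant sample, over the named members, TWIST1 and the cluster totals, none was found.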

How the results depend on the processing

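In cells the number of members called was 14 to 19 over all alternatives other than the filter of the study, under which 12 of the 36 members that remained were called, and every call was higher in sgTWIST1. Leaving out each replicate gave 14 to 18. PCDHB6, PCDHB2, PCDHB7 and PCDHA5 were the calls lost, and PCDHB18 also under the filter of the study. In tumors the number was 13 or 14, and the calls lost were of PCDHGC3 alone. The interaction gave 0 calls by edgeR without a filter (5 members at an unadjusted p under 0.05) and 1 by DESeq2, with 2 members at most elsewhere (without sgTWIST1 cells 3, and without sgTWIST1 tumor 3) and 1 to 2 as each replicate was left out. TWIST1 stayed at an adjusted p under 0.05 in cells, but its log2(FC) was 0.87 to 1.20 as each replicate was left out, under the fold threshold without Control cells 2 (0.99) or sgTWIST1 cells 3 (0.87). PCDHGB1, not called, had log2(FC) -0.29 to 0.031 in cells as each replicate was left out, above 0 without sgTWIST1 cells 2. The C-type members moved the cluster ratios as given above. Without them the log2 ratios of sgTWIST1 over Control were 0.74 and 0.26 for alpha and 0.27 and 0.51 for gamma, in cells and tumors. Without TMM the 3 ratios in tumors were 0.64, 1.22 and 0.24, against 0.53, 1.12 and 0.11. Under the filter of the study 3 protocadherins outside the clusters, 2 chromatin regulators and 1 flanking gene were called in cells, and leaving out replicates gave 4 to 5, 1 to 2 and 0 to 2 in cells and 5 to 7, 1 to 2 and 1 to 3 in tumors.

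No label pairs the samples by replicate number, and a pairing in cells was not excluded. Same-number correlations of deviations were 0.12, 0.09 and 0.15 in cells, where each sample correlated best with its own number, and -0.01, 0.71, -0.58 and 0.07 in tumors. With the replicate block 17 members were called in cells and 13 in tumors, where PCDHGC3 was lost (1.06, adjusted p = 0.061 by edgeR). Expected counts of members that share exons limit what can be said of a single member, and PCDHGA2, PCDHGA3 and PCDHA5 rested on few counts in Control cells.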

Other observations

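Between PCDHB15 and PCDHGA1 lies a long noncoding RNA gene, AC005618.6 (chr5:140705777-140708930, plus strand), which ends 1151 bases before the start of PCDHGA1 and is no member of the family. It was chosen after its values had been seen. It had 0.689, 0.998 and 0.984 CPM in Control cells and 10.9, 10.9 and 10.2 CPM in sgTWIST1 cells. In tumors it had 1.70, 2.35, 1.53 and 2.13 CPM for Control and 20.3, 18.6, 16.5 and 18.3 CPM for sgTWIST1. The groups did not overlap, and log2(FC) was -3.56 (SE 0.25, adjusted p = 2.7e-05) in cells and -3.25 (SE 0.20, adjusted p = 1.09e-05) in tumors by edgeR's quasi-likelihood test. The pseudogene PCDHB19P, also in the locus, had log2(FC) -0.95 (adjusted p = 0.0422) in cells and -0.30 (adjusted p = 0.179) in tumors, and PCDHGB8P had -0.22 and -0.58, with no call.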
